A study of Arabidopsis thaliana with 8 samples.

Results

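The B-class GATA factor genes of *Arabidopsis thaliana* comprise GNC (AT5G56860), CGA1 (AT4G26150), GATA15 (AT3G06740), GATA16 (AT5G49300), GATA17 (AT3G16870), GATA17L (AT4G16141), HAN (AT3G50870), GATA19 (AT4G36620), GATA20 (AT2G18380) and GATA23 (AT5G26930). These 10 loci were taken by their identifiers from the 27444 protein-coding genes of the 5 nuclear chromosomes, and the rule that names them uses no binding value. GNC and CGA1 were themselves the factors whose binding was mapped, so the peaks in these windows show where each factor was found at its own gene, at its paralog and at the rest of its class. ChIP-seq had been performed with an anti-myc antibody on whole rosette leaves of 3-week-old Col-0 plants, grown with 16 h of light per day. One line overexpressed GNC with a c-myc tag (myc-GNC) and the other overexpressed CGA1 with the same tag (myc-CGA1), with 2 biological replicates of each. An immunoprecipitated (IP) and an INPUT library were made for each replicate, which gives 8 libraries and 4 deposited peak lists. Both lines carried the tagged protein at a raised level, and the INPUT was the control of each list, with no untagged plants analysed here. The leaves hold many cell types together, and a peak does not tell in which of them the factor was bound. The transgene adds a copy of the GNC coding sequence in myc-GNC plants and of the CGA1 coding sequence in myc-CGA1 plants.

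GATA factors bind DNA through a zinc finger and recognise short words around GATA, and B-class members of plants carry a single such finger. GNC, CGA1, GATA15, GATA16, GATA17 and GATA17L share a leucine-leucine-methionine (LLM) domain at the C terminus and act in greening, chloroplast development and the responses to light, cytokinin, nitrate and gibberellin. HAN, GATA19 and GATA20 form the HAN group, and HAN is known for its role at the boundaries of meristems and floral organs. GATA23 is known for the specification of lateral root founder cells downstream of auxin.

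A window from 2 kb upstream to 1 kb downstream of each gene was searched in all lists. The score of a peak is 10 times the −log10 of its MACS p-value for IP against INPUT, and the lowest score listed was 50. The GNC lists hold 5745 and 5722 peaks with median scores of 65.3 and 65.6, and the CGA1 lists hold 2456 and 2399 peaks with median scores of 62.9 and 62.5. In GNC all 4735 peaks of list 1 that overlapped a peak of list 2 had the same edges in both, as did 46.5% of 1918 such peaks in CGA1. The lists of a line were therefore counted as 1 sample, and a peak was taken as found when it overlapped a peak of the other list by at least 1 bp. There is thus no spread between replicates, the lists hold no read counts and do not give the depth, and every value here is a description with no test.

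The sequences under 5 of the peaks are shown because the words that GATA factors recognise can be read in them. Each is a 300-base stretch of TAIR10 (RefSeq TAIR10.1), written 5′ to 3′ on the strand of its gene, with capitals for GATA, its reverse complement TATC, and GATC. The stretch of GNC lies at chr5:22990658-22990957 (minus strand) in a peak of 1 GNC list and spans 156 bases of intron and 144 coding bases of exon 2. That of CGA1 lies at chr4:13253437-13253736 (plus strand) in a GNC peak of both lists. That of GATA20 lies at chr2:7983718-7984017 (minus strand) in a GNC peak of both lists, all within the coding part of exon 1, and was moved by 69 bases from the peak centre to avoid the 5′ UTR. Those of GATA17, at chr3:5763197-5763496 (minus strand), and GATA23, at chr5:9479039-9479338 (plus strand), lie in CGA1 peaks of both lists, the first just downstream of its gene and the second upstream. The stretch of GATA17 was moved by 2 bases from the peak centre to avoid the 3′ UTR.
GNC: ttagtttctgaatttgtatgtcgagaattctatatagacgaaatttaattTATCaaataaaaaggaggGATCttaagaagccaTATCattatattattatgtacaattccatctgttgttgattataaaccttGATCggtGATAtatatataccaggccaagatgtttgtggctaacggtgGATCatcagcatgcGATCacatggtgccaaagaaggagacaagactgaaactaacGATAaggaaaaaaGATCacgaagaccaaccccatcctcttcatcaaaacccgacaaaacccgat
CGA1: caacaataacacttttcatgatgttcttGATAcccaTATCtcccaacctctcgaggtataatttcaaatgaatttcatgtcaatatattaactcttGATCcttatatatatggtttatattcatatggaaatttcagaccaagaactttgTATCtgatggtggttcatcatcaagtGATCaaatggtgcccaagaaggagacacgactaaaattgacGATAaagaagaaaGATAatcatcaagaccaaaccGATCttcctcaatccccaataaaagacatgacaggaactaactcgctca
GATA20: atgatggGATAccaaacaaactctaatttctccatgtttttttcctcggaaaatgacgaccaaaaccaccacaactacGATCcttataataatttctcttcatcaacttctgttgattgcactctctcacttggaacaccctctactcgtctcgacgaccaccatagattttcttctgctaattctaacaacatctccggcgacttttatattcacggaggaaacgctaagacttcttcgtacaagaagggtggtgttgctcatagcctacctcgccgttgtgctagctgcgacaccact
GATA17: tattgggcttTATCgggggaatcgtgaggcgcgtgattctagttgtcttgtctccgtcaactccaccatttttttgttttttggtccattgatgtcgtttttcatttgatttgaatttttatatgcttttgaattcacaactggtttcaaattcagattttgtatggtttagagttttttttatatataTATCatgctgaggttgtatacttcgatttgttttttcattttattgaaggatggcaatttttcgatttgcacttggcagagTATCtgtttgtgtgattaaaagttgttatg
GATA23: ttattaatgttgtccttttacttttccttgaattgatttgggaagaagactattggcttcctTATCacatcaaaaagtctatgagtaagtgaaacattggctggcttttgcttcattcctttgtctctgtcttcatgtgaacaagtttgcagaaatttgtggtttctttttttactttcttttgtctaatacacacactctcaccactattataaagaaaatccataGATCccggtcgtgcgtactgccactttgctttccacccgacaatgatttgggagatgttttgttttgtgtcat

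GNC peaks were found in both lists in the windows of CGA1 and GATA20, and CGA1 peaks in both lists in the windows of GATA17 and GATA23. These were different genes for each factor, and 0 of the 10 windows held peaks of both factors by this rule, against 2.53% of protein-coding genes. With so low a share, 0 of 10 is no result about these genes. Among all protein-coding genes 22.7% had a GNC peak by the same rule, against 2 of the 10 members (20.0%). A CGA1 peak was found at 9.87% of protein-coding genes and again at 2 members. A peak of either factor was found at 4 members and at 30.1% of protein-coding genes. The share for GNC was close to the background, and the 2 genes with a CGA1 peak are too few to read as an excess. The windows of the members ran from 3777 to 5315 bp with a median of 4441 bp, against a median of 5078 bp for all protein-coding genes. When a peak of any 1 list was accepted, 6 members had a GNC peak (background 30.9%) and the same 2 members had a CGA1 peak (background 15.0%). The additional genes were GNC, GATA16, GATA17 and HAN, so GATA17 then had peaks of both factors. GATA15, GATA17L and GATA19 had no peak of either factor in their windows.

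**Figure D1:**
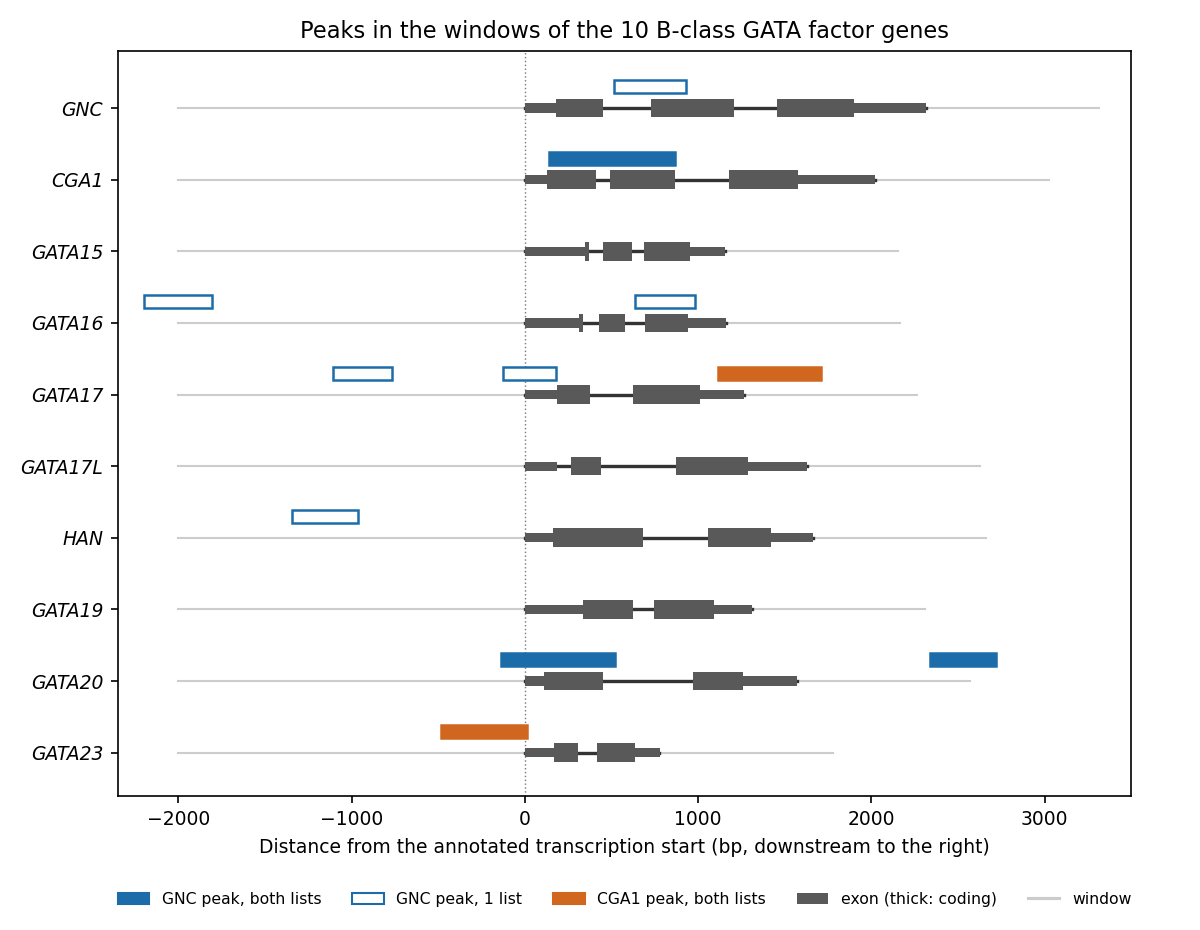
Peaks in the windows of the 10 genes, drawn in bp from the annotated transcription start (TSS) of each gene and on its strand. Filled bars are peaks of both lists and open bars peaks of 1 list, blue for GNC and orange for CGA1; grey boxes are exons. Filled bars occur at 4 genes, and 3 genes have no bar.

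The CGA1 gene, a cytokinin- and light-responsive paralog of GNC, held a GNC peak within its transcribed region. The gene lies on chromosome 4 from 13253084 to 13255106 on the plus strand and has 3 exons. The peak ran from 13253225 to 13253947, a width of 723 bp, and scored 74.87 in list 1 and 82.02 in list 2, above 66.2% and 75.8% of the peaks in those lists. Its centre lay 502 bp downstream of the TSS, and of its bases 641 are coding and 82 are the first intron. The peak thus covered most of the coding part of exon 1, intron 1 and exon 2, and did not reach the promoter. This peak came from the myc-GNC line, whose transgene is GNC and not CGA1. Every 50-base word of the window of CGA1 occurs once in the genome, and the longest stretch shared exactly between this peak and the GNC gene was 18 bp. Whether reads of the transgene contributed to this peak was not tested. No CGA1 peak of either list was found in the window of the CGA1 gene, and the nearest one in both lists lay 28448 bp downstream of the gene.

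The GNC gene (nitrate-inducible, carbon metabolism-involved) lies on chromosome 5 from 22989216 to 22991530 on the minus strand. A GNC peak at its own gene was listed only in list 1, from 22990600 to 22991015, with a score of 52.59, which exceeds 11.1% of the peaks in that list. The peak was 416 bp wide and centred 722.5 bp downstream of the TSS, with 202 coding bases of exon 2 and 214 bases of intron 1. The transgene of the myc-GNC line carries the GNC coding sequence, and its contribution to this peak was not tested. Of the 1170 peaks of GNC list 1 with scores from 50 to 55, 55.1% were found again in list 2, against 100% of the 624 peaks with scores of 100 or more. Because shared GNC peaks have the same edges in both lists, these shares do not measure independent replication. No CGA1 peak was found in the window of GNC, and the nearest one lay 15667 bp upstream, with scores of 74.11 and 58.74 in the CGA1 lists. In these lists the reciprocal pair was thus uneven, with a GNC peak at CGA1 in both lists and no CGA1 peak at GNC in any. The CGA1 lists were shorter, and 9.87% of protein-coding genes had a CGA1 peak in both lists against 22.7% for GNC. The GNC peak at CGA1 began 141 bp downstream of the TSS and did not reach the promoter. Neither factor thus had a listed peak at the promoter of the other gene. By ChIP-qPCR, the paper reports CGA1 binding at the GNC promoter and GNC binding at the CGA1 promoter. The missing CGA1 peak therefore does not show that CGA1 was absent from GNC. The same holds for the lack of a GNC peak at the CGA1 promoter.

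The GNC peaks at CGA1 and GNC both covered the end of intron 1 and the start of exon 2. The peak at CGA1 was 723 bp wide and also covered most of the coding part of exon 1 and most of exon 2. That at GNC, listed in 1 list with a score of 52.59, did not reach exon 1. Over the first 144 bases of exon 2, compared without gaps, the genes were identical at 100 bases, or 69.4%. In these bases GNC has 4 of the searched words and CGA1 has 5, and 2 words lie at the same place in both genes. These are GATC at base 40 of exon 2 and GATA at base 81. Both can be seen in the printed stretches, GATA within acGATAa in each. Whether either word was bound was not tested.

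Among the other LLM-domain genes, GATA17 was the one with a peak in both lists of a factor. GATA17 lies on chromosome 3 from 5763497 to 5764760 on the minus strand. A CGA1 peak ran from 5763053 to 5763643 across its 3′ end, with 147 bases in the 3′ UTR and 444 bases downstream. Its scores of 121.7 and 132.79 were above 97.0% and 98.2% of the CGA1 peaks of list 1 and list 2 and were the highest at any member. The stretch shown for GATA17 holds 3 words, all TATC as read on the strand of the gene, and no GATC. GNC peaks were listed at this gene only in list 2, and neither overlapped the CGA1 peak. One was 306 bp wide with a score of 51.16, centred 28.5 bp downstream of the TSS. The other was 338 bp wide with a score of 55.98, centred at −938.5 bp (negative distances are upstream of the TSS). GATA17L, the close paralog of GATA17, had no peak, and its nearest peaks in both lists lay 66932 bp (GNC) and 70445 bp (CGA1) upstream of the gene. For GNC, 99.0% of protein-coding genes had a nearer peak than GATA17L, and for CGA1 91.4%.

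GATA16 had GNC peaks in single lists. One, in list 1, was centred 809.5 bp downstream of the TSS with a score of 52.37 and covered 249 coding bases, 43 bases of the 3′ UTR and 54 of an intron. The other, in list 2, was centred at −2003 bp from the TSS with a score of 62.78, reached 194 bp into the window and overlapped the non-coding loci AT5G07365 and AT5G07375. The protein-coding gene nearest to that peak was AT5G49305, not GATA16. GATA15, its paralog, had a GNC peak in both lists 4988 bp downstream of the gene, outside the window, with scores of 54.53 and 64.04, while its nearest CGA1 peak lay 48198 bp away. Of the 6 LLM-domain genes, 1 had a GNC peak and 1 a CGA1 peak in both lists, 4 had a GNC peak in any list, and 2 had none of either factor. Over all protein-coding genes the shares were 22.7% and 9.87% in both lists, and 30.9% for a GNC peak in any list. The share with no peak of either factor in any list was not counted. With 6 genes, these counts are too few to read as a trait of the LLM-domain genes.

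**Figure D2:**
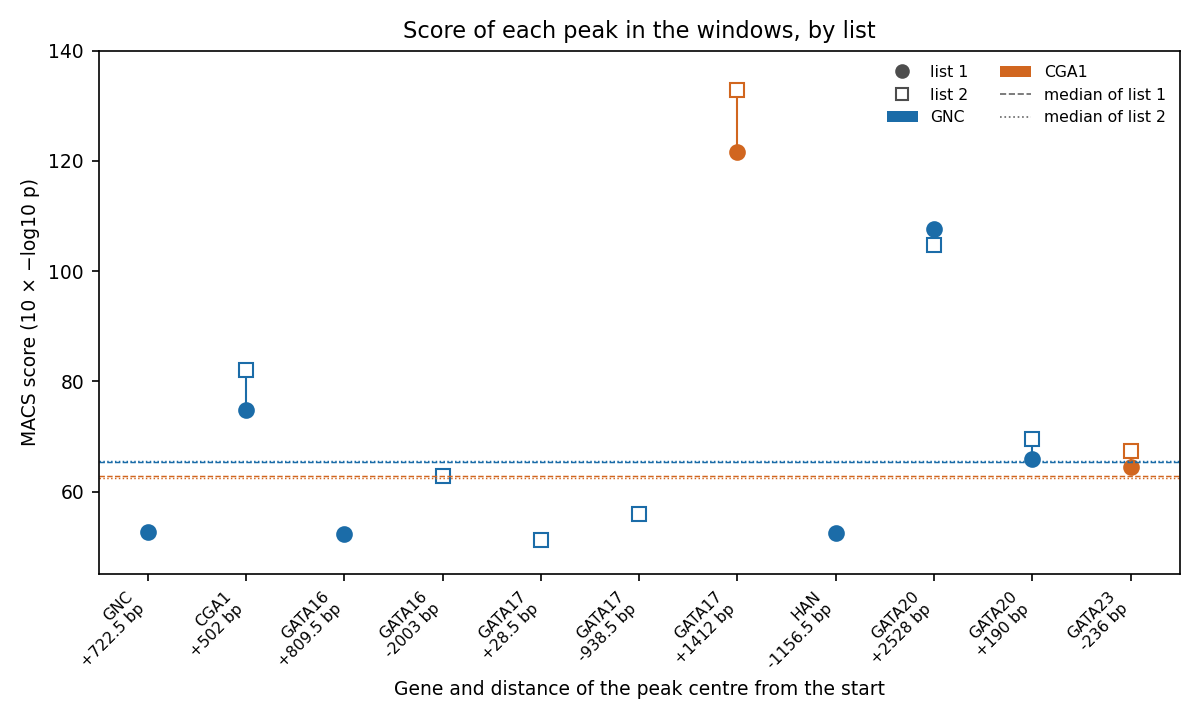
Score of each peak in the windows of the members, by gene and distance of the peak centre from the TSS; circles are list 1, squares list 2, blue GNC and orange CGA1, and the broken lines are the median scores of the lists. Peaks of both lists scored 64.38 to 132.79 and peaks of 1 list 51.16 to 62.78.

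In the HAN group, GATA20 held a GNC peak across its first exon. The gene lies on chromosome 2 from 7982556 to 7984126 on the minus strand. The peak ran from 7983606 to 7984266, or from 140 bp upstream of the TSS to 520 bp downstream, and scored 65.91 and 69.5, above 51.3% and 57.6% of the peaks in the GNC lists. It covered 339 coding bases, 109 bases of the 5′ UTR, 73 of the intron and 140 of the region upstream, and was the only GNC peak of both lists that reached the promoter of a member. A second GNC peak, from 7981408 to 7981788 with scores of 107.67 and 104.69, entered the window of GATA20 from downstream by 233 bp. That peak lies over the neighbouring gene AT2G18370, which is also the protein-coding gene nearest to it. HAN itself had a GNC peak in list 1 only, 380 bp wide, centred at −1156.5 bp from the TSS with a score of 52.5. GATA19 had no peak, and its nearest peaks in both lists lay 8285 bp (GNC) and 34743 bp (CGA1) upstream, the latter with scores of 122.96 and 123.63. The CGA1 peak nearest to HAN lay 7091 bp upstream over AT3G50860, and that nearest to GATA20 lay 32383 bp downstream, so none of the 3 genes had a CGA1 peak in its window. Over all protein-coding genes 9.87% had a CGA1 peak in both lists, so 3 genes without 1 are no result about this group.

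GATA23 was the member with a CGA1 peak at its promoter. The gene lies on chromosome 5 from 9479424 to 9480200 on the plus strand, and the peak ran from 9478941 to 9479435, from 483 bp upstream of the TSS to 11 bp downstream. It scored 64.38 and 67.37, above 53.6% and 61.7% of the peaks in the CGA1 lists. The printed stretch upstream of GATA23 holds 1 TATC, at −323 bp from the TSS, and 1 GATC, at −158 bp. No GNC peak lay in its window, and the nearest one in both lists, with scores of 70.37 and 66.98, was 1839 bp downstream of the gene, over AT5G26940.

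By position, the 5 peaks found in both lists lay at different sites. The peak at CGA1 lay within the gene, that at GATA20 across the TSS and first exon, that at GATA23 in the promoter and that at GATA17 across the 3′ end, while the remaining one lay over a neighbour of GATA20. GNC peaks of both lists overlapped the body of 11.5% of protein-coding genes and CGA1 peaks 4.85%, and by this narrower rule the members were again CGA1 and GATA20 for GNC, and GATA17 and GATA23 for CGA1. The CGA1 peak reached only 12 bases into the transcribed part of GATA23. All 6 peaks of a single list were GNC peaks, at GNC, GATA16, GATA17 and HAN. Peaks with lower scores were found again less often. Of the 1174 peaks of GNC list 2 with scores from 50 to 55, 60.0% were found again in list 1. The share was 72.7% for scores from 55 to 60 and 85.3% for scores from 60 to 70. With shared edges in the lists, these shares do not measure independent replication either.

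The gap from each gene to its nearest peak of both lists was also measured, counting 0 where the peak overlaps the gene. The median gap of the members was 11704 bp for GNC and 30416 bp for CGA1, against 6583 and 18254 bp over all protein-coding genes. It exceeded 5000 bp at 6 members for GNC and at 8 members for CGA1, and at 15703 and 21870 of the 27444 protein-coding genes. For GNC the gaps above 0 ran from 1839 bp at GATA23 to 66932 bp at GATA17L. For CGA1 they ran from 7091 bp at HAN to 83894 bp at GATA16. GNC itself was 15124 bp from its nearest GNC peak of both lists, farther than 75.8% of protein-coding genes.

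**Figure D3:**
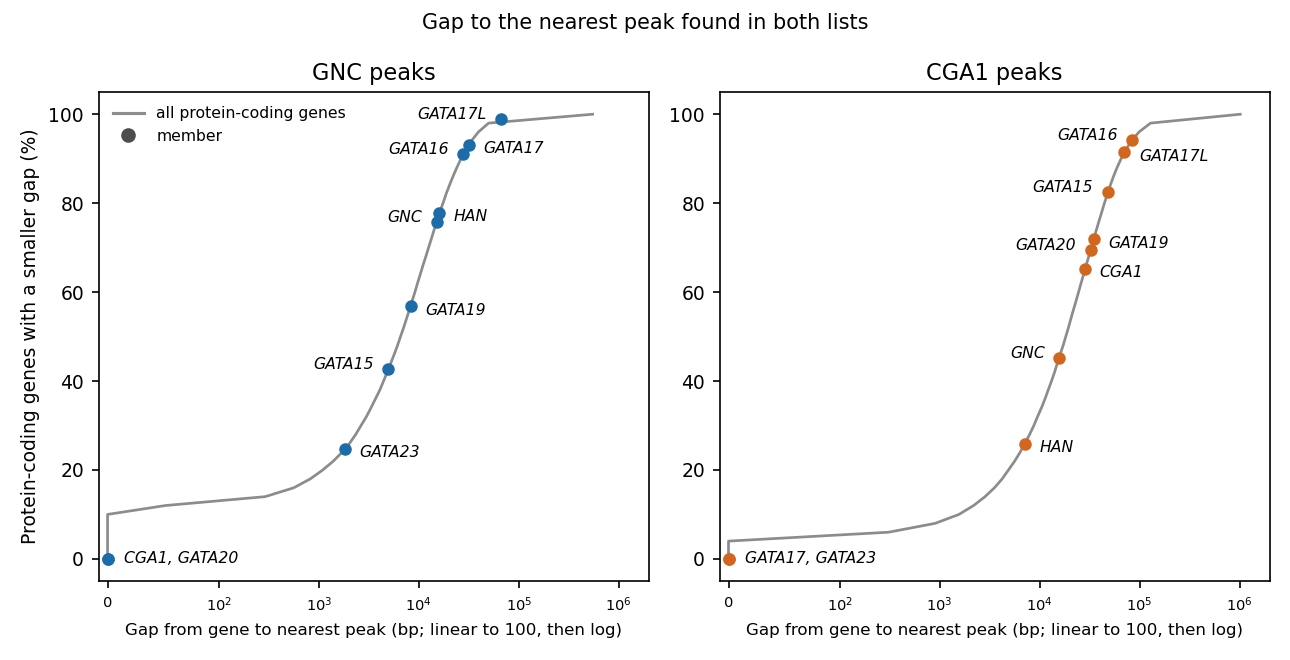
Gap in bp from each gene to the nearest GNC peak (left) or CGA1 peak (right) found in both lists, on an axis that is linear to 100 bp and logarithmic beyond, against the percentage of protein-coding genes with a smaller gap. The grey line is all protein-coding genes and the points are the 10 members, of which CGA1 and GATA20 (left) and GATA17 and GATA23 (right) are at 0.

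Words were counted in 300-bp windows centred on each peak. GATA was searched on both strands, so TATC counts as GATA, while GATC is the same on both strands and was counted once; the words may overlap. A longer form, GATA preceded by A or T and followed by A or G, is contained in the GATA count. GATA was present in 91.9% and 91.7% of the windows of the GNC lists, with a median of 2 per window, and in 92.1% and 92.0% of those of the CGA1 lists. GATC was present in 62.1% and 62.8% of GNC windows and in 61.8% and 63.3% of CGA1 windows, and the longer form in 59.7%, 59.4%, 61.8% and 62.4%, in the same order. Windows away from peaks were not counted, so these shares do not show whether the words are enriched under peaks. The paper describes GATA and GATC as frequent across the genome. Every member window held at least 1 GATA. The GNC peak at the CGA1 gene held 5 GATA and 3 GATC, more GATA than 86.4% of GNC peaks. The GNC peak at the GNC gene held 4 GATA and 5 GATC, and that across the first exon of GATA20 held 4 GATA and 1 GATC, each above 72.3% of GNC peaks in GATA. The CGA1 peak at GATA17 held 4 GATA, above 69.5% of CGA1 peaks, and no GATC and no longer form; the printed stretch, moved by 2 bases, holds 3 of these GATA. The CGA1 peak at GATA23 held 1 GATA and 1 GATC, and only 7.94% of CGA1 peaks held fewer GATA. It also held 1 longer form, so of these CGA1 peaks the one at GATA17 held more GATA, and the one at GATA23 held more GATC and more of the longer form. Where a GATA or GATC is present, it is a match of letters and not a site shown to be bound.

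**Figure D4:**
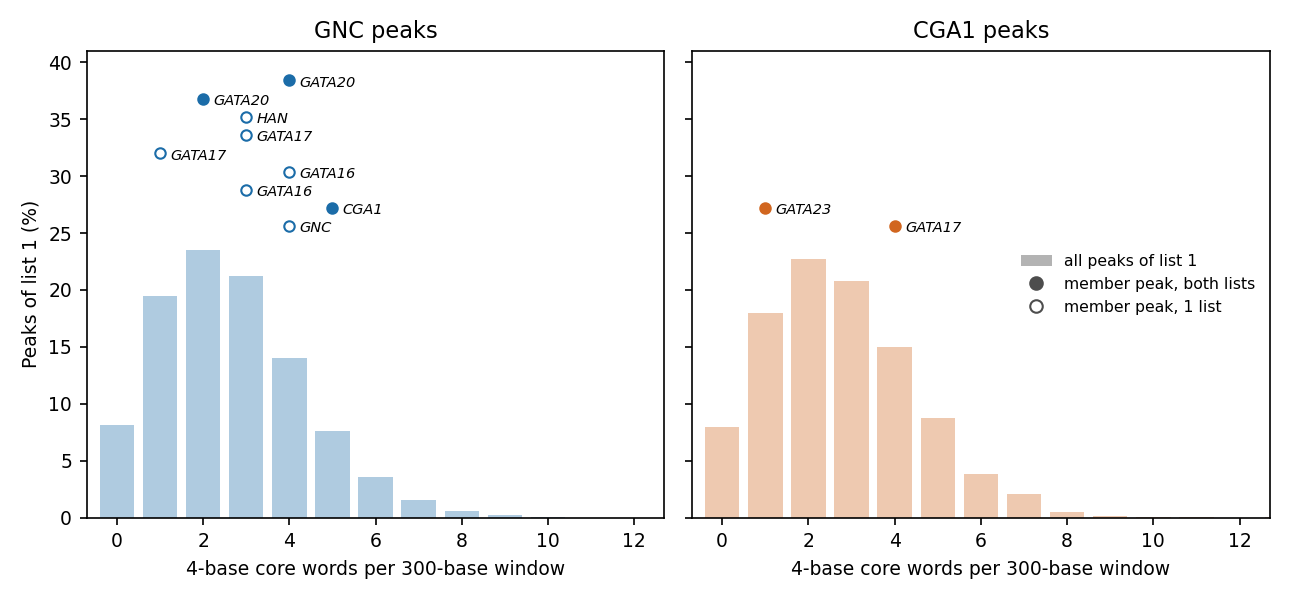
Number of GATA words, on both strands, in the 300-base window centred on each peak, for GNC (left) and CGA1 (right). Bars give the percentage of the peaks of list 1 with each number, and points, at heights chosen for legibility, mark the peaks in the windows of members, filled for both lists and open for 1 list; they lie between 1 and 5 words.

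The other GATA factor genes gave the comparison with the rest of the family. Of 20 such genes, 2 had a GNC peak in both lists, GATA2 and GATA26 (10.0%), and 0 had a CGA1 peak. The share for GNC was 20.0% in the B-class and 22.7% over all protein-coding genes, and the share for CGA1 over all protein-coding genes was 9.87%. The GATA26 peak was centred at −437 bp from the TSS with scores of 59.07 and 54.9. That of GATA2, with scores of 53.54 and 55.08, was centred 1548.5 bp downstream of its TSS, with 52 bases in the 3′ UTR of GATA2 and the rest downstream, and it also overlapped AT2G45060, the protein-coding gene nearest to its centre. With a peak of any list, GATA5, GATA24 and GATA28 were added for GNC and GATA5 for CGA1. Of the other GATA genes, none had a peak of both lists with the score of those at GATA17 or CGA1.

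Genes known to act upstream of B-class GATA genes, among them type-B response regulators of cytokinin, phytochrome-interacting factors, DELLA repressors of gibberellin signalling, auxin response factors and floral regulators, were read in the same way. Of 22 such genes 8 (36.4%) had a GNC peak in both lists, 4 (18.2%) a CGA1 peak and 1, SOC1, both, where the shares over all protein-coding genes were 22.7%, 9.87% and 2.53%. Like the members and the other GATA genes, these were chosen with earlier results of these data known, so the shares are no independent comparison. Over the gene itself, the counts in both lists were 2 (9.09%) for GNC and 3 (13.6%) for CGA1. The shares over all protein-coding genes were then 11.5% and 4.85%. The GNC peak counted for SOC1 lay over its neighbour AT2G45650, centred 4593 bp downstream of the TSS of SOC1. Among the type-B response regulators, GNC peaks of both lists were found at ARR10 (centred at −658 bp, scores 122.16 and 133.08) and ARR12 (57.63 and 64.71) and a CGA1 peak of both lists at ARR1 (140.57 and 131.81). ARR1 also had a GNC peak in list 1 only, with a score of 70.25. The highest scores at any of these genes were those of the CGA1 peak centred 63.5 bp downstream of the TSS of SOC1, a flowering-time integrator, with 220.74 and 210.49. The paper describes SOC1 as acting both upstream and downstream of GNC and CGA1. From these same data it names SOC1 a common target of both factors. PIF1, which represses light responses in the dark, had a CGA1 peak at the TSS with scores of 70.14 and 71.25. GNC peaks were also counted at RGL3, ARF5, ARF7, PI and AG, and a CGA1 peak at GAI. Several of these peaks lay nearer to another gene, among them the peaks counted for GAI (over AT1G14930) and ARF5 (over AT1G19860). The remaining 11 genes had no peak of either factor in any list.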

How the data were processed

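ChIP-seq data of myc-GNC and myc-CGA1 rosette leaves were used as deposited, 4 lists of peaks from 8 libraries. Per the methods, the authors aligned trimmed reads to TAIR10 using Bowtie2 version 2.2.6, discarded those with several locations, and ran MACS on each replicate, IP against INPUT. The deposited score of each peak is 10 times its −log10 p-value, and sites under the minimum of 50 or in repeats are lost. Groups follow the titles, although the CGA1 INPUT samples carry descriptions that point to GNC lists. The lists carry no counts, so depth cannot be read from them. The paper's supplement has a figure of sequencing reads per sample, which was not used here.

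Peaks were set against the TAIR10.1 annotation in Python 3.11.15 with numpy 2.4.6 (figures: matplotlib 3.10.9). All peaks lay within the chromosome lengths of that assembly. Windows and overlaps (at least 1 bp) were checked on simulated data, and word counts were not. No test was made. The members and the lists of other GATA genes and of regulators were chosen with earlier results of these data known. All members were named, as was every gene of the other lists with a peak in its window. Alternatives were a promoter window, a 5 kb window, the peak centre, a score of at least 100, the nearest gene, and each or either list alone.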

Additional observations from a re-analysis of the deposited data

How the results depend on the processing

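No paired analysis was possible because the results are counts of genes with peaks and come from no test. Of 66 alternative values 34 stayed within 1.5 times the main count or share, and 32 did not. The number of members with a GNC peak, 2, was 1 in the promoter window (1 kb upstream to 100 bp downstream of the TSS; GATA20), 4 in a window of 5 kb, 1 with scores of at least 100 (the neighbour's peak at GATA20), 6 with either list, and 4 to 5 with 1 list left out. The number with a CGA1 peak, 2, was 1 in the promoter window (GATA23) and 1 with scores of at least 100 (GATA17), and 2 under every other alternative. The other GATA genes with a GNC peak, 2, numbered 1, 5, 0 and 1 in the promoter window, the 5 kb window, with scores of at least 100 and by the nearest gene, 5 with either list and 3 to 5 with 1 list left out. Those with a CGA1 peak, 0, numbered 1 in the 5 kb window, 1 with either list and 0 to 1 with 1 list left out. The regulator genes with a GNC peak, 8, numbered 2, 14, 2 and 5 in the promoter window, the 5 kb window, with scores of at least 100 and by the nearest gene, and those with a CGA1 peak, 4, numbered 2 in the promoter window and 2 with scores of at least 100. The share of protein-coding genes with a GNC peak was 7.11%, 42.8%, 2.61% and 14.3% under the same 4 settings, and with a CGA1 peak 3.06%, 20.3%, 0.762% and 6.19%, and 15.0% with either list. Each of these settings lets fewer or more peaks qualify by its construction.

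The lists hold no read counts, so no score has an error and a peak missing from a list does not show that the factor was absent. The lists of a line share peak edges, and were counted as 1 sample. A peak was counted for each gene whose window it enters, also when it lies over a neighbour. No untagged plants were analysed here, and both factors were overexpressed.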
